A study of Mus musculus with 21 samples.

Results

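The 10 control regions described here are stretches of DNA that carry methylation on the chromosome inherited from the mother and none on the one inherited from the father. They lie at Snrpn, Kcnq1ot1, Peg3, Mest, Peg10, Igf2r, Grb10, Plagl1, Nnat and Impact. Each was taken as a fixed window of the mm9 mouse genome, and all CpGs listed inside it were used. The windows held 1199 of the 15544856 CpGs listed in the library, with 6903 of the 60995624 CpG reads. The library is bisulfite-converted DNA from the nucleosomes of C57BL/6 sperm, the only group used here, with no replicate. The other 20 samples of the series, which include chromatin, RNA and sonicated DNA of sperm or round spermatids, were not analysed here. Sperm were selected for motility by swim-up, and chromatin was cut to single nucleosomes with micrococcal nuclease, so each level below describes DNA that was still wrapped in nucleosomes. How many mice were pooled is not given in the sources used here.

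Genomic imprinting is the expression of a gene from the allele of a single parent. At a maternally methylated control region the oocyte sets DNA methylation during its growth and the sperm does not, and the difference is kept in the somatic cells of the offspring. In those cells the methylated maternal copy is inactive as a promoter, whereas the paternal copy is active. Many of these regions are CpG-rich promoters, either of a protein-coding gene or of a long noncoding RNA that silences its neighbours.

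Promoters of 8 of the 10 members are in the RefSeq table used (build GRCm38.p6). For 4 of them, the spacing of CpGs placed the sequence inside the window of its own gene, and the 250 bases before the gene start are shown because the reads below fall on them. Capitals mark each CpG that has reads in the library. Plagl1 (chr10:13090582-13090831, plus strand, GRCm38.p6) encodes a zinc finger transcription factor that restrains cell growth. Nnat (chr2:157559828-157560077, plus strand) encodes neuronatin, a small membrane protein of neurons. Mest (chr6:30737800-30738049, plus strand) encodes a protein of the hydrolase family that is active in embryonic mesoderm. Peg3 (chr7:6730420-6730669, minus strand) encodes a large zinc finger protein.
Plagl1 promoter: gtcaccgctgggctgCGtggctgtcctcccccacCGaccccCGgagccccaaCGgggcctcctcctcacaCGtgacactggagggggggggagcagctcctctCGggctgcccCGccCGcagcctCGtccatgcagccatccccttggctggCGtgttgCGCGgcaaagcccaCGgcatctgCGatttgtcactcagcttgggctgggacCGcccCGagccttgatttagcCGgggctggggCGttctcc
Nnat promoter: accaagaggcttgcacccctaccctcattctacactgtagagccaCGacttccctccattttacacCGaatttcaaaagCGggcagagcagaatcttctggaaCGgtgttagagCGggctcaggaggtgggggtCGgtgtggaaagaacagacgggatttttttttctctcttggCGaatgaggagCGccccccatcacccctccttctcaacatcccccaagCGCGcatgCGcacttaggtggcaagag
Mest promoter: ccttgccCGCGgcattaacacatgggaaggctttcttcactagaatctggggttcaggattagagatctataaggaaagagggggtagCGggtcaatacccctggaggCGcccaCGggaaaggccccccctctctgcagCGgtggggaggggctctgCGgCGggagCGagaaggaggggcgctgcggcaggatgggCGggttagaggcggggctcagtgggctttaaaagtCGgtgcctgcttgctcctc
Peg3 promoter: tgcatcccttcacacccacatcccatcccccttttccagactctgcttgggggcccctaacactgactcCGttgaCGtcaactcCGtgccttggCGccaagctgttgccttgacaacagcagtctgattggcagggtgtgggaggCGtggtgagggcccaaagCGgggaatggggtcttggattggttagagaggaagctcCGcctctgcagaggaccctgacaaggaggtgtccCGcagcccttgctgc

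These promoters differed in how many methylated reads they carried. The Plagl1 sequence had 8 methylated reads of 84 over 18 listed CpGs, or 9.52% (95% Wilson interval 4.91 to 17.7; intervals in parentheses are of this kind throughout). The Peg3 sequence had 2 methylated reads of 37 over 8 CpGs, or 5.41% (1.495 to 17.7). In the Mest sequence 3 of 22 reads over 11 CpGs were methylated, or 13.6% (4.75 to 33.3). Plagl1, Peg3 and Mest thus had low levels with intervals that overlap. The Nnat sequence stood apart, with 15 of 20 reads methylated over 11 CpGs, a level of 75% (53.1 to 88.8). Each of these CpGs at Nnat was seen in only 1 to 4 reads, and further into the window the level was lower, at 10.4% in its central part. The letters TGCCGC, the core of the motif that the imprint-protecting protein ZFP57 binds when it is methylated, occurred on the reverse strand 1 time in the Plagl1 and 2 times in the Mest sequence, and on neither strand of the Nnat and Peg3 sequences. Searched on both strands, 8.68% of all 32851 promoters hold these letters in the same 250 bases, and 3 of the 14 promoter entries of the members do, of which a pair at Mest overlap.

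All 10 control regions were low in methylation in sperm, and none was free of it. Pooled over the windows, 1227 of 6903 CpG reads were methylated, a level of 17.8% (16.9 to 18.7). The 10 levels ran from 9.97% to 27.6%, with a median of 19.5% and a mean of 19.4% ± 6.56 (SD, 10 loci). All 10 were under 50%, against 6.32% of the autosomal windows of 2 kb with at least 30 reads and 72.3% of those that also had 40 or more listed CpGs. Only 5 of the 10 were under 20%, close to the 58.3% of such CpG-rich windows. Over all 2 kb windows 3.31% were under 20%. Of the members 1 was under 10%, against 2.26% of all and 43.8% of the CpG-rich windows, and 0 were under 5%, against 1.27% and 25.6%. The windows of the members differ from 2 kb in length, and that of Snrpn holds only 1.49 listed CpGs per 100 bp, so it is not CpG-rich by this measure.

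Among regions that act as promoters of noncoding RNAs, the level differed by locus. Kcnq1ot1 is a long RNA transcribed inside Kcnq1 that silences neighbouring genes on the paternal chromosome. Its window, on chromosome 7 from 150480700 to 150483000, had 114 methylated of 1010 reads over 105 CpGs, or 11.3% (9.48 to 13.4). The Igf2r window, on chromosome 17 from 12934000 to 12935800, is known as the promoter of Airn, a noncoding RNA antisense to the receptor that clears IGF2. It had 60 methylated of 226 reads over 75 CpGs, or 26.5% (21.2 to 32.7). These intervals do not overlap, and the Igf2r window had the fewest reads of the 10, with no CpG of 10 or more reads.

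Regions at genes that govern growth and signalling covered the same range. Plagl1, on chromosome 10 from 12810300 to 12811600, had the lowest level of all, with 64 methylated of 642 reads over 87 CpGs, or 9.97% (7.88 to 12.5). Grb10, an adaptor that dampens insulin signalling, had 157 of 1116 reads methylated over 135 CpGs on chromosome 11 from 11925200 to 11926600, or 14.1% (12.2 to 16.2). Mest, on chromosome 6 from 30684900 to 30690000, had 186 of 1118 over 177 CpGs, or 16.6% (14.6 to 18.9). Plagl1 was below Mest beyond the intervals, and Grb10 was not. Peg3, on chromosome 7 from 6680000 to 6684500, had 168 of 636 over 144 CpGs, or 26.4% (23.1 to 29.98). Peg10, a gene derived from a retrotransposon and needed in the placenta, had 214 of 774 over 178 CpGs on chromosome 6 from 4696000 to 4699500, or 27.6% (24.6 to 30.9), the highest level.

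The last regions lie at genes with roles in neurons or in RNA and protein synthesis. Snrpn encodes a component of the spliceosome, and its control region governs the cluster affected in Prader-Willi syndrome. On chromosome 7 from 67147000 to 67151500 it had 75 of 336 reads methylated over 67 CpGs, or 22.3% (18.2 to 27.1), and was the sparsest in CpGs. Nnat, on chromosome 2 from 157385400 to 157387500, had 61 of 268 over 94 CpGs, or 22.8% (18.1 to 28.1). Impact, a regulator of the translation kinase GCN2, had 128 of 777 over 137 CpGs on chromosome 18 from 13130500 to 13133000, or 16.5% (14.03 to 19.2). Ranked by level, no neighbours among the 10 had separate intervals, but 25 of the 45 pairs did. Plagl1 and Kcnq1ot1 each lay apart from Peg3, Igf2r and Peg10. An annotation of mm9 was not used here, so exons and introns are not given for the windows. In RefSeq (GRCm38.p6) Snrpn overlaps Snurf and Snhg14, Plagl1 overlaps Hymai, Nnat overlaps Blcap, and Mest overlaps Copg2 and Mir335.

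**Figure D1:**
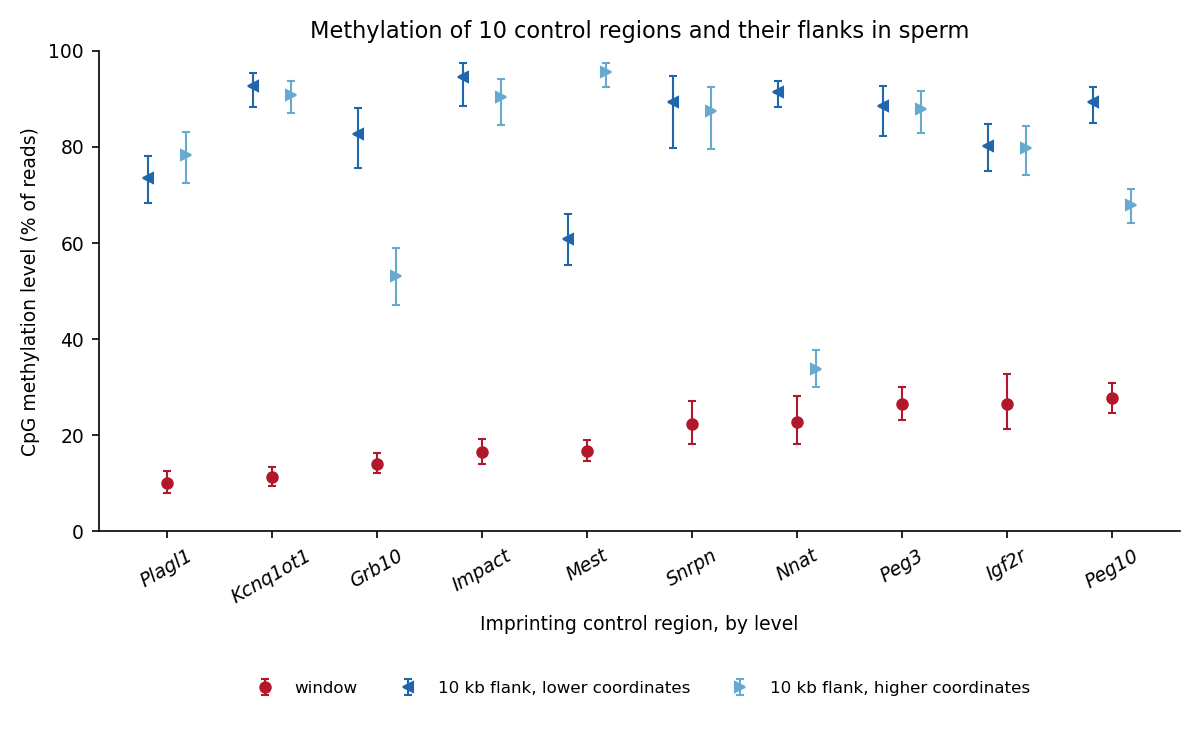
CpG methylation level (percent of reads, vertical axis) of the 10 windows (circles) and of the 10 kb on each side (triangles), ordered by the level of the window, with 95% Wilson intervals as bars. The windows lie between 9.97% and 27.6%, each below both of its flanks, and the flank of Nnat at higher coordinates is the lowest flank, at 33.7%.

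The flanks of the windows were mostly methylated, except on the side of Nnat at higher coordinates. Pooled over 10 kb on each side, 3955 of 5242 reads were methylated, a level of 75.4% (74.3 to 76.6), and in 10 of 10 loci the window was lower than both sides. Of the CpG-rich 2 kb windows under 50%, 92.8% were likewise below both of their sides, so this count is near the background. Of the 20 sides of the members 13 were over 80% methylated, against 43.4% of the sides of those 2 kb windows, which lie on a fixed grid and can have the rest of the same CpG-rich stretch beside them. The highest was 95.6% at Mest (92.6 to 97.4, side of higher coordinates), and Impact and Kcnq1ot1 had 94.5% (88.5 to 97.5) and 92.6% (88.3 to 95.4) on the side of lower coordinates.

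Several flanks held other stretches of low methylation. The lowest side was that of Nnat toward higher coordinates, at 33.7% (29.96 to 37.8). In 5 of its 7 bins of 300 bp with 5 or more CpGs the level was under 20%, and together these had 0.946% (0.322 to 2.75) over 82 CpGs and 317 reads. They began about 4058 bp from the window, and the promoter of Blcap, the gene that overlaps Nnat, was placed there with 0 of 50 reads methylated. Grb10 had 53.1% (47.0 to 59.1) on the side of higher coordinates, with 2 bins under 20% that started 8862 bp away. Mest had 60.9% (55.4 to 66.1) on the side of lower coordinates, with 1 such bin, and Peg10 had 67.8% (64.2 to 71.3) toward higher coordinates with no such bin.

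**Figure D2:**
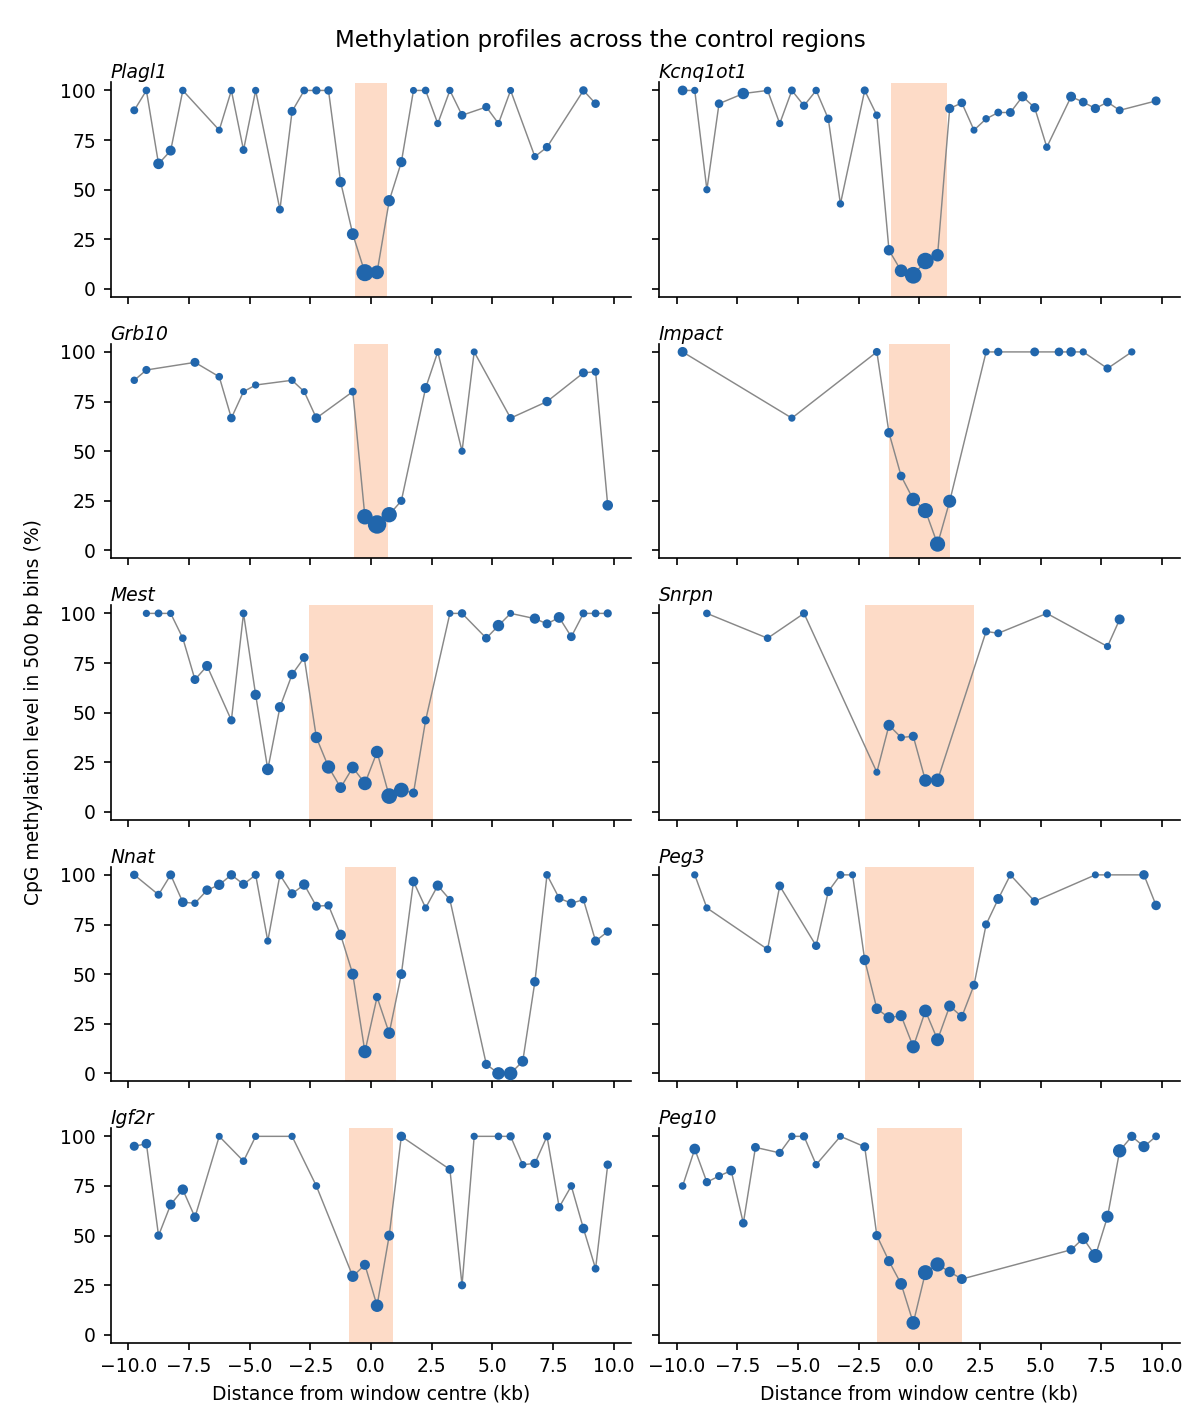
CpG methylation level in 500 bp bins (vertical axis, percent; bins with at least 5 reads) against distance from the window centre (kb), 1 panel for each locus ordered by level, with the window shaded and the point area rising with the number of reads. Windows lie between 9.97% and 27.6% in all against 75.4% in the pooled flanks, and the second low stretch beside Nnat holds the promoter of Blcap.

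The extent of low methylation was followed outward until the running level of 5 CpGs reached 50%. At Mest it spanned 4905 bp, at Kcnq1ot1 2495 bp, at Plagl1 1672 bp and at Grb10 1133 bp, and in these loci it came within 500 bp of both window ends or passed them. Peg3 spanned 3363 bp and Snrpn 2149 bp, the latter without the part of the window at lower coordinates. Ended at a running level of 30%, Mest spanned 861 bp and Peg3 491 bp. At Peg10, Igf2r, Nnat and Impact the stretch was 434, 384, 114 and 516 bp long. With a running level of 9 CpGs these became 2033, 2135, 1719 and 1265 bp, so the extent at these loci depended on the setting.

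Divided into 3 equal parts, 6 of the 10 windows were lowest in the central part, and 7 were highest in the part at lower coordinates. Other windows of the genome were not divided in this way, so these counts have no background share. Pooled, the central parts had 16.3% of 3211 reads methylated, the parts at lower coordinates 24.5% of 1373 and those at higher coordinates 15.9% of 2319. Nnat had 35.9% of 92 reads methylated at lower coordinates and 10.4% of 96 in the centre, and Snrpn had 41.7% of 60 and 19.2% of 167. In Impact the level was 32% of 50 reads at lower coordinates, 23.1% of 329 in the centre and 9.05% of 398 at higher coordinates. Kcnq1ot1 was even, between 8.87% and 14.4%.

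Among the deeper CpGs of the windows, most had a few methylated reads and hardly any had a high level. The windows held 178 of their 1199 CpGs at 10 or more reads, none of them in Igf2r or Nnat, with a pooled level of 12.6%. Of these, 42 (23.6%) had no methylated read, 91 (51.1%) had a level above 0 and under 20%, 42 had a level from 20% to under 50%, and 3 (1.69%) had 50% or more. Shallower CpGs had higher levels, and few reads per CpG do not show how methylation is spread among them. In the least covered bin of Nnat, all 6 reads over 6 CpGs were methylated. Runs of at least 30 CpGs with 5 or more reads each, a level under 50% over 3 neighbours and no gap above 500 bp, called over the autosomes, are the CpG-rich regions of low methylation compared here. In these 9272 regions 74.1% of 128381 CpGs at that depth had no methylated read and 0.302% reached 50%. The regions were called for low methylation and include 6 of the 10 loci.

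Single CpGs of 10 or more reads were seen in 8 of the 10 windows. The highest level was 50% in Peg10 (5 of 10 reads, position 4698345, interval 23.7 to 76.3) and in Impact (6 of 12 reads, position 13132064, 25.4 to 74.6). In Plagl1 the highest was 16.7% (3 of 18 reads, position 12810878, 5.84 to 39.2). The medians over such CpGs were 8.70% in Grb10 (35 CpGs), 9.09% in Plagl1 (19) and Impact (25), 10% in Kcnq1ot1 (43), 11.8% in Mest (34), 14.7% in Snrpn (10), 20% in Peg10 (6) and 33.3% in Peg3 (6).

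Against the called CpG-rich regions of low methylation, the control regions had more methylated reads. The median level of the 9272 regions was 2.95%, with quartiles of 1.92% and 4.55% and a 95th percentile of 10.1%. Between 94.9% (Plagl1) and 99.6% (Peg10) of the regions had a lower level than a given window. These shares depend on how the regions were called, since a region needs a low level over an unbroken run of CpGs. The windows of Peg10, Igf2r, Snrpn and Nnat overlap none of the regions, so their shares cannot be separated from the effect of the call. Snrpn is not well matched here, as 0% of the regions were less dense in CpGs than its window. Window limits are fixed whereas the regions end where methylation rises, so levels were also compared at like CpG density, counted as listed CpGs within 100 bp on each side. At 15 or more CpGs the windows had 12.7% of 3343 reads methylated (11.7 to 13.9, 497 CpGs), the regions 2.59% and all autosomal CpGs of that class 3.68%. At 10 to 14 CpGs the windows had 18.8% (17.0 to 20.7), the regions 4.04% and all autosomal CpGs 29.1%.

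Every locus with CpGs in the densest class was above those 3.68%. The lowest were Kcnq1ot1 with 6.90% (4.75 to 9.91, 377 reads) and Mest with 6.97% (4.40 to 10.9, 244 reads), and the highest was Peg10 with 26% (22.3 to 30.02, 500 reads). Snrpn had no CpG in this class. Grb10 lies almost wholly in it, with 124 of its 135 CpGs and 13.0% (11.1 to 15.1). How many other loci lie above 3.68% was not counted. Over all their CpGs, the 7392 autosomal 2 kb windows with 80 or more listed CpGs and a level under 50% had a median of 3.65%. Their upper quartile was 5.90%. Of the 19850 CpG-rich 2 kb windows under 50%, 12021 were under 10% and 27% fell within the range of the members. Levels of this size thus also occur at other loci. For Plagl1 the share with a lower level was smaller among these windows than among the 9272 regions.

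**Figure D3:**
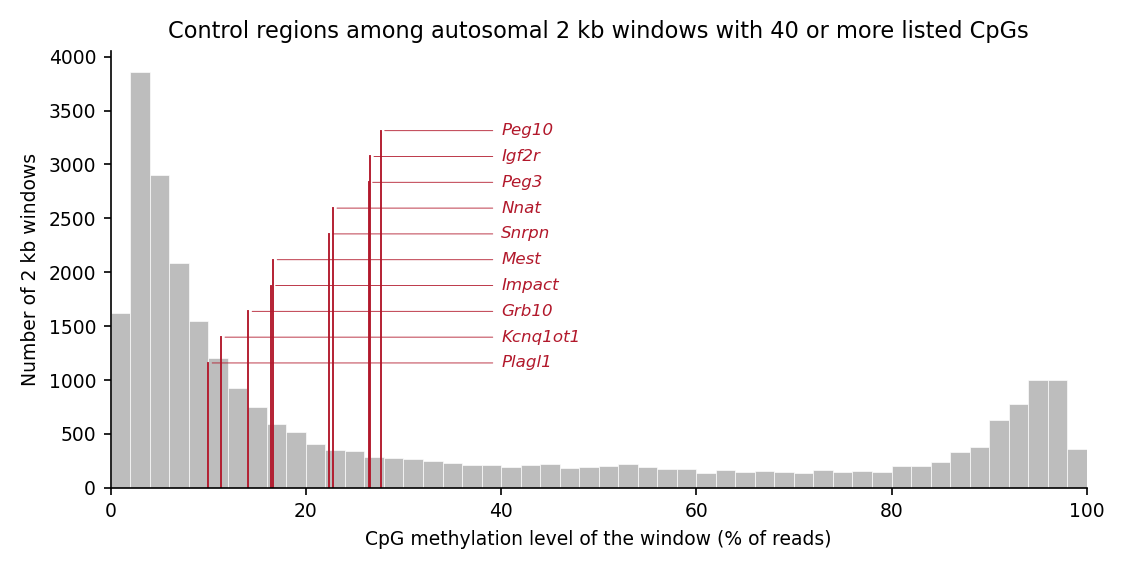
Number of autosomal 2 kb windows with 40 or more listed CpGs and at least 30 reads (vertical axis) by CpG methylation level (percent, horizontal axis, steps of 2), with a line at the level of each control region (line heights only separate the names). The members lie from 9.97% to 27.6%, above the peak of nearly unmethylated windows and far below the methylated ones.

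The opposite germline pattern was measured in the same library at regions that sperm methylates. The region upstream of H19 had 130 of 173 reads methylated over 60 CpGs, or 75.1% (68.2 to 81.0), and the region between Dlk1 and Meg3 had 383 of 432 over 100 CpGs, or 88.7% (85.3 to 91.3). Pooled, these had 84.8% (81.7 to 87.4), above each of the 10 maternally methylated windows. The lower bound at H19 exceeds the upper bound of every window, the highest of which is 32.7%.

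Coverage, the number of reads recovered per listed CpG, was higher in most windows than beside them. Without CpGs above 18 reads, the windows had 5.39 ± 3.52 reads per listed CpG (SD, 1173 CpGs) and the flanks 3.32 ± 2.21 (SD, 1579 CpGs), a ratio of 1.62 (1.54 to 1.70, an interval that treats CpGs as independent). The window exceeded its own flanks in 8 of 10 loci, against 81.2% of the CpG-rich 2 kb windows under 50%, so the members' share is that of the background. Kcnq1ot1 had the largest excess, with 8.47 ± 3.87 reads in the window and 3.50 ± 2.34 in the flanks. Grb10 had 6.90 ± 3.16 and 2.91 ± 1.72, and Plagl1 6.60 ± 3.51 and 3.07 ± 1.93. Nnat, at 2.85 ± 1.77 and 3.44 ± 2.05, and Igf2r, at 3.01 ± 2.04 and 3.21 ± 1.962, had fewer reads in the window than beside it.

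Windows are denser in CpGs than flanks, so coverage was also compared within classes of density. At 15 or more CpGs the windows had 6.03 ± 3.31 reads (SD, 497 CpGs before the limit on reads) and the flanks 3.37 ± 2.14 (49 CpGs), and at 10 to 14 they had 5.76 ± 4.08 and 4.10 ± 2.54. Those 49 flank CpGs had a level of 7.88% (4.66 to 13.0, 165 reads), so they too were low in methylation. From which flanks they come was not broken down. At 6 to 9 CpGs the means were 4.67 and 3.96, at 3 to 5 they were 3.94 and 3.35, and at 1 or 2 they were 2.78 and 2.87, where the direction turned. From the densest class to the sparsest, the CpG-rich regions of low methylation had 5.73, 5.20, 5.03, 4.83 and 4.77 reads. All autosomal CpGs had 5.35, 4.28, 3.66, 3.25 and 2.82, so the windows' 6.03 was close to other CpG-dense DNA. Among the 9272 regions, which were called from CpGs of 5 or more reads, coverage had a median of 5.45. Kcnq1ot1 was above 98.4% of them, Grb10 above 88.1% and Plagl1 above 83.5%, whereas Igf2r and Nnat were below all. With 16 and 14 CpGs of 5 or more reads, Igf2r and Nnat fall short of the 30 that a region needs. Their rank thus follows largely from how the regions were called. An unconverted or sonicated control was not analysed here, so how well reads can be placed at each locus was not tested.

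Loci with more reads per CpG had lower levels. Across the 10 windows the Spearman correlation of level with coverage was -0.867 and the Pearson correlation -0.856. The points share 1 library and differ in density and length, and level and density correlated at -0.503 (Spearman). In the 9272 regions the Spearman correlation of level with coverage was 0.061. Within the windows the level was 27.4% at CpGs of 1 or 2 reads (391 reads in all), 21.8% at 3 or 4 (1040), 19.3% at 5 to 9 (3058) and 12.6% at 10 or more (2414). The level also fell with depth over all autosomal CpGs, from 82.1% through 78.9% and 70.8% to 49.1%. In the flanks it was 78.99%, 74.0%, 76.3% and 67.5% in the same order of depth, the last from 30 CpGs. In the regions, which were called for low methylation, it was between 3.82% and 4.27% in these classes. A steady fall with depth was thus also seen over all autosomal CpGs, which mix classes of density, but not in the flanks or the regions. The part of depth in the differences between loci was not tested.

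**Figure D4:**
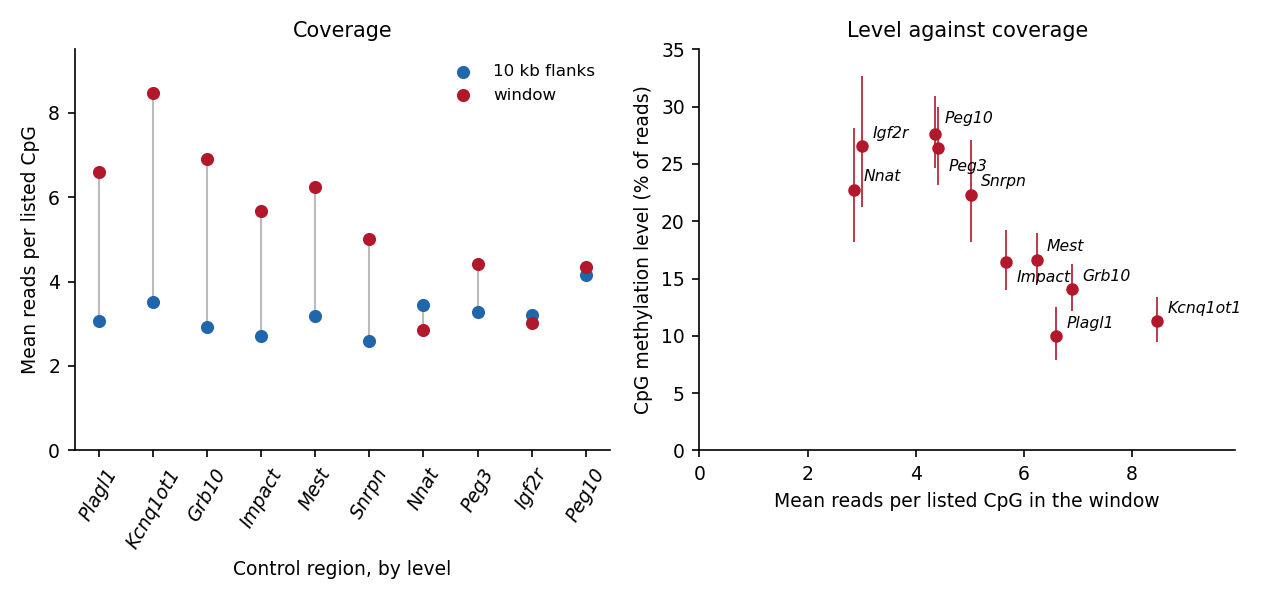
Left, mean reads per listed CpG (without CpGs above 18 reads) in each window and in its 10 kb flanks, ordered by level. Right, methylation level (percent, with 95% Wilson intervals) against mean reads per listed CpG of the 10 windows; Kcnq1ot1, at 8.47 reads and 11.3%, and Igf2r, at 3.01 reads and 26.5%, lie near opposite ends.

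Coverage also varied inside windows, in bins of 200 bp. In Mest the best covered bin, from 30688700 to 30688899, held 11 CpGs of 14.2 ± 3.76 reads with 12.2% methylation (7.94 to 18.2). The least covered, from 30687900 to 30688099 and overlapping the printed promoter, held 11 CpGs of 1.55 ± 0.52 reads. Kcnq1ot1 ranged from 13.9 ± 2.79 to 3.78 ± 3.38 reads. The best covered bin of Peg10, from 4698200 to 4698399, held 23 CpGs of 7.04 ± 2.25 reads with 45.1% methylation (37.6 to 52.7, 162 reads). In Peg3 the best covered bin had 35.3% (25.002 to 47.2, 68 reads). Those of Impact and Plagl1 had 3.25% (1.39 to 7.37, 154 reads) and 6.32% (3.98 to 9.89, 269 reads).

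The 4 promoters of the same loci that were placed outside the windows had lower levels than the control regions. The main promoter of Grb10, 10774 bp beyond the window, had 3 of 147 reads methylated over 41 CpGs, or 2.04% (0.696 to 5.83), against 14.1% (12.2 to 16.2) in the window. The promoter of Igf2r itself, which gains methylation on the paternal copy only after fertilization, lay 26723 bp away with 6 of 167 reads over 34 CpGs, or 3.59% (1.66 to 7.62), against 26.5% (21.2 to 32.7). Blcap, beside Nnat, had 0 of 50 reads (upper Wilson bound 7.13%) 4548 bp from that window, and Copg2, whose gene overlaps Mest in the annotation but whose promoter lay 156745 bp beyond the window, had 0 of 93 (upper bound 3.97%). In these 4 pairs the intervals of promoter and window do not overlap. The promoters are short, whereas the windows include DNA sparser in CpGs. At window CpGs of the class of 15 or more, Igf2r had 12.5% (5.46 to 26.1, 40 reads), which overlaps its promoter's interval. In that class Grb10 with 13.0% (11.1 to 15.1), Nnat with 12.6% (8.21 to 18.8) and Mest with 6.97% (4.40 to 10.9) stayed apart. Promoters that share a window with a member had levels like that member's own promoter, whose sequence they overlap. Usp29 beside Peg3 had 10.3% (5.08 to 19.8), and Hymai beside Plagl1 had 9.74% (5.99 to 15.4). The Peg3 promoter, with the bases after the gene start, had 10.5% (4.91 to 21.1). At Peg3 both promoters were thus also below their window, which had 26.4% (23.1 to 29.98). In the class of 15 or more CpGs that window had 16.1% (7.09 to 32.6, 31 reads), which overlaps both.

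Promoters of genes of the germ line, many of which are known to be methylated in somatic tissues, were measured in the same library. Of 18 genes listed after the levels of the windows had been seen, 17 were placed. Their levels ran from 6.67% to 83.6% with a median of 28.9%, 0 were under 5% and 2 were at 50% or more. Ddx4, an RNA helicase of germ cells, had 6.67% (3.42 to 12.6, 120 reads) and Tdrd1, a protein of the piRNA pathway, 8.26% (4.55 to 14.5, 121 reads). Sycp1, of the synaptonemal complex, had 19.7% (14.1 to 26.9, 147 reads), Mael 17.8% (11.6 to 26.4, 101 reads), and Hormad1, an axis protein of meiotic chromosomes, 29.8% (23.1 to 37.5, 151 reads). Sycp3 had 73.8% (58.9 to 84.7, 42 reads) and Dazl, an RNA-binding protein of germ cells, 83.6% (72.9 to 90.6, 67 reads). Of these 17 promoters 5 fell within the range of the 10 control regions. Of all CpG-rich 2 kb windows 19.5% did, and of those under 50% it was 27%. The promoters span only 300 bases, so the units differ, and no share over all promoters was computed for any of these counts. The cells in the sample were not typed in these data, and the part of other cells or of incomplete conversion in any of these levels was not tested.

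**Figure D5:**
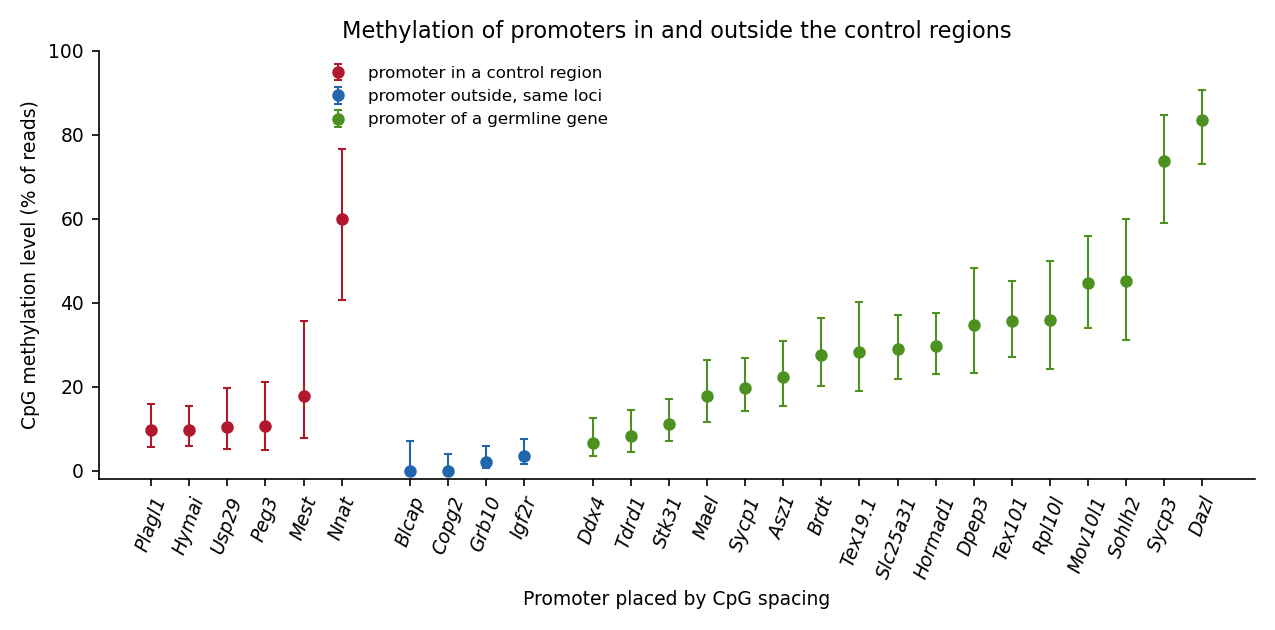
CpG methylation level (percent of reads, vertical axis) with 95% Wilson intervals of RefSeq promoters placed by CpG spacing: 6 inside a control region, 4 outside in the same loci and 17 of germline genes. The 4 outside lie between 0% and 3.59%; those inside lie between 9.63% and 17.9% except Nnat at 60%, which here includes the bases after the gene start.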

How the data were processed

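CpG methylation was analysed in 1 of the 21 samples of the series, a bisulfite library of nucleosomal DNA from C57BL/6 sperm. Per the file headers, the deposited table holds the counts of total and of methylated reads at each CpG. The values are whole numbers without normalization. Bowtie and mm9 are named in the submitters' processing notes. Alignment settings, handling of duplicates and the bisulfite conversion rate: not given in the sources used here. CpGs without reads are not listed, and whether positions count from 0 or 1 is not stated.

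The methylation level is methylated over total reads, in percent, pooled over all listed CpGs of a region, with 95% Wilson binomial intervals. Reads that cover several CpGs count at each, and copies of a molecule made by PCR cannot be told from separate molecules, so the intervals are too narrow and cover counting error only. Coverage is the mean number of reads per listed CpG without CpGs above 18 reads, the 99.9th percentile over the autosomes. There is 1 library and so no test between groups, and no p-value is given. All members are named. Single CpGs are named as the highest level at 10 or more reads in each window, and 200 bp bins with 5 or more listed CpGs as the best and the least covered. The windows of the 2 comparison regions methylated in sperm were set from general knowledge of mm9. The members and the lists were chosen with earlier results of these data known.

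RefSeq promoters (GRCm38.p6, 250 bases before to 50 after a gene start) were placed among the mm9 CpGs by spacing alone, with no conversion of coordinates. A placement within a window and its flanks needed at least 8 matched CpGs, 90% of the listed CpGs of the span on a CpG of the sequence, and a next best position with at most 50% of the matches. Promoters elsewhere were searched over the whole chromosome with a limit of 75%, a step chosen after the data were seen, as was the list of 18 germline genes. The scripts ran under Python 3.11.15 with scipy 1.17.1, pandas 2.3.3, matplotlib 3.10.9 and numpy 2.4.6. Level estimates, region calls and the best position of a promoter were tested on simulated data, with more reads per CpG than in the library. The limits for accepting a position were not part of that test. Alternatives covered read minimums, window and flank limits, very deep CpGs, density classes and thresholds.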

Additional observations from a re-analysis of the deposited data

How the results depend on the processing

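No paired analysis was possible because the data come from 1 library. Alternatives that left out loci, or regions overlapping a window, and the search of whole chromosomes for promoters were chosen after seeing the data. The pooled level of 17.8% became 16.3% and 12.6% at minimums of 5 and 10 reads per CpG and 19.4% as a mean of loci. It was 17.3% with only loci of 300 or more reads and 17.9% without the locus on chromosome 18. The 5 windows under 20% became 1 under 10% and 0 under 5%. The flank level of 75.4% became 69.96% with 5 kb and 72.0% with 20 kb. The coverage ratio of 1.62 became 1.73 with all CpGs kept and 1.72 with flanks of 5 kb. By density class it was 1.18 at 3 to 5 and at 6 to 9 CpGs, 1.40 at 10 to 14, 1.79 at 15 or more, and reversed to 0.971 at 1 or 2. The cause of that reversal was not tested, and the windows have 23 CpGs in this class. In the class of 15 or more the flanks have 49 CpGs, with a level of 7.88%. The level of the regions methylated in sperm rose from 84.8% to 89.9% at 5 or more reads.

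Of 48 alternative levels of single loci 42 stayed within the main interval. At 10 or more reads Peg3 had 30%, Peg10 21.3%, Grb10 11.2% and Impact 10.3%, and Peg10 had 31.1% at 5 or more. Nnat had 17.0% with its window shortened by 300 bp at each end. Spans of low methylation ended at a running level of 30% were 491 bp at Peg3, 861 at Mest, 247 at Igf2r, 565 at Grb10, 1106 at Plagl1, 67 at Nnat and 132 at Impact. With a running level over 9 CpGs they were 2033 bp at Peg10, 2135 at Igf2r, 1719 at Nnat and 1265 at Impact. Depth limits single CpGs: in the whole library 1.96% reach 10 reads, and neither Igf2r nor Nnat has such a CpG in its window.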
